A study of Mus musculus with 6 samples.

Results

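The 7 genes described here, Gata2, Lmo2, Tal1, Gfi1b, Erg, Hlf and Mecom, encode transcription factors of blood stem cells and, in LMO2, a cofactor that binds no DNA itself. They were taken by symbol from the 47729 genes counted in each library, and all 7 passed the filter on low counts. They were chosen with earlier results of these data known, so the shares called among them are not independent of that choice. The libraries hold RNA of FACS-sorted DN1a/b cells from the thymus of C57BL/6 mice, 2 libraries in each of 3 groups. RBPJ is the DNA-binding protein that Notch receptors work through. By the series' description it was present all along in Control mice and missing in RBPJ uninduced mice, a state called "without RBPJ" here, while RBPJ 6 days induced mice were without it until doxycycline, injected at 2 mg/ml and then supplied at 1 mg/ml in the drinking water, switched it on. The sources used here do not give the alleles, the ages, the cells in which RBPJ was removed or whether the other groups received doxycycline. Where induced libraries are compared, the return of RBPJ and the drug itself cannot be told apart. Nor do the labels state that each library of a group is a different mouse, and p-values then measure only the spread between libraries, which may be technical.

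GATA2, LMO2 and TAL1 act together in blood stem and progenitor cells. TAL1 pairs with an E protein and binds E-box DNA, GATA2 binds GATA motifs, and LMO2 bridges them through LDB1 without touching DNA. ERG is an ETS factor that binds many of the same regulatory regions, GFI1B is a zinc finger repressor of stem, erythroid and megakaryocytic cells, HLF is a PAR bZIP factor of stem cells, and the Mecom locus encodes the EVI1 zinc finger protein. Outside the stem cell, GATA2 also serves mast cells and megakaryocytes, and TAL1 and GFI1B serve red cell precursors. LMO2 and TAL1 are normally shut down as thymocytes commit to the T lineage, and each causes T-cell leukaemia when it stays on.

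The genes lie apart in the genome (GRCm38, the build also called mm10). Gata2 (ENSMUSG00000015053) is on chromosome 6 from 88193891 to 88207032 on the plus strand, Lmo2 (ENSMUSG00000032698) on chromosome 2 from 103957986 to 103981878 on the plus strand and Tal1 (ENSMUSG00000028717) on chromosome 4 from 115056426 to 115071755 on the plus strand. Gfi1b (ENSMUSG00000026815) is on chromosome 2 from 28609450 to 28621982 on the minus strand and Erg (ENSMUSG00000040732) on chromosome 16 from 95359169 to 95586593 on the minus strand. Hlf (ENSMUSG00000003949) is on chromosome 11 from 90336536 to 90390895 on the minus strand, and Mecom (ENSMUSG00000027684) on chromosome 3 from 29951296 to 30548008 on the minus strand. Only Mecom shares annotated exon bases with another gene, 81 bases with its antisense gene Mecomos, which had 0 to 9 counts per library.

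The 250 bases before a RefSeq start are shown for 4 genes that were higher in both uninduced libraries than in both Control libraries, to show how unlike these starts are (GRCm38.p6). For Gata2 and Tal1 the start shown is the upstream one. Each window lies outside annotated UTRs and runs 5′ to 3′ on the gene's strand. Capitals mark GATA motifs (AGATAA, allowing T as the first and G as the last base), E-boxes (CANNTG) and the core RBPJ motif (TGGGAA), searched on both strands, with no overlap between the matches marked.
Gata2, chr6:88193641-88193890: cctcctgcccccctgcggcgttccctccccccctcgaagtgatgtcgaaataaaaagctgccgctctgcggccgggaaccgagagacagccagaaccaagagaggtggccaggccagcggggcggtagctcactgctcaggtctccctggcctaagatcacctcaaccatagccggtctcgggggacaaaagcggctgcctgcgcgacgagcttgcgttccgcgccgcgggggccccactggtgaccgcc
Tal1, chr4:115056176-115056425: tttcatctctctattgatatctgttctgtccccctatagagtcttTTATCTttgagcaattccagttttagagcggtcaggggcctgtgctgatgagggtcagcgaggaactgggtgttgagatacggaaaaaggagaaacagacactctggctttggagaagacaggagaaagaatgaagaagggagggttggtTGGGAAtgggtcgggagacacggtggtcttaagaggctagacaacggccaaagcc
Gfi1b, chr2:28621983-28622232: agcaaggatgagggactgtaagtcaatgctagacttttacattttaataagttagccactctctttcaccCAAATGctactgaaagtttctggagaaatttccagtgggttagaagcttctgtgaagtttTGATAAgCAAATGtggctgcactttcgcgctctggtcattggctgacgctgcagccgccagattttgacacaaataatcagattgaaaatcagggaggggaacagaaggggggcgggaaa
Hlf, chr11:90390918-90391167: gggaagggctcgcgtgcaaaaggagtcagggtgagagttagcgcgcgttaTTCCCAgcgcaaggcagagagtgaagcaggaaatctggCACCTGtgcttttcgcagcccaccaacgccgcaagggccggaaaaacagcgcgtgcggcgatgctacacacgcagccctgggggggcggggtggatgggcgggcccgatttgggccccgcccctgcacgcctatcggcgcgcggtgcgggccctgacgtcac
The Gata2 window, with a GC content of 67.2%, held none of these motifs. The Tal1 window (48.8% GC) held 1 GATA motif and 1 RBPJ core, the Gfi1b window (44.4% GC) 1 GATA motif and 2 E-boxes, and the Hlf window (67.2% GC) 1 E-box and 1 RBPJ core. Among 32536 different windows of this length before RefSeq starts, 26.5% held a GATA motif, 66.2% an E-box and 21.6% the RBPJ core, so each is common, and a match is a description of letters, not of binding. For 6 of the 7 genes the RefSeq promoter table had an entry, all but Lmo2.

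Total counts ranged from 5098927 in RBPJ uninduced replicate 1 to 12932928 in Control replicate 1, and 1 count was worth between 0.0761 and 0.177 CPM (read counts relative to the TMM-scaled library total). Rbpj itself stood at 74.1 and 72.9 CPM in Control, 28.2 and 29.98 CPM in uninduced and 198 and 203 CPM in induced libraries. The uninduced level was 0.396 of that in Control, so part of the transcript remained, and gene counts do not resolve which part of the gene it came from. Its log2 fold change was -1.34 without RBPJ (SE 0.186, adjusted p = 0.00495 by edgeR's quasi-likelihood test, 0.057 with the 4 compared libraries) and 2.78 on induction (SE 0.193, adjusted p = 0.000507). Induced libraries also exceeded Control, by 1.45 (adjusted p = 0.0175), which did not pass without Control replicate 1 (0.0848) or its fellow (0.09), nor without induced replicate 2 (0.0518). Transcripts of KIT and CD44, receptors that define early DN1 cells, were present in every library, Kit at 372 to 631 CPM and Cd44 at 196 to 390 CPM. Of 8 surface genes of early thymic progenitors 3 fell without RBPJ, Ccr9, Ptprc and Cd44, beside 2.93% of all tested genes. Mean Cd44 went from 366 CPM in Control to 197 CPM in uninduced libraries (adjusted p = 0.0188 by edgeR). On induction 1 of the 8, Ptprc, rose, beside 1.55% of all tested genes. Some libraries stood apart. RBPJ uninduced replicate 2 held 839 CPM summed over 10 B-lineage genes against 7.16 to 50.9 CPM in the other 5 libraries, and Control replicate 2 held 835 CPM over 13 genes of later thymocytes and mature T cells against 32.0 to 188 CPM. In these sorted populations fewer cells of a type and less RNA per cell cannot be told apart.

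The comparison of RBPJ uninduced with Control libraries asked which transcripts differ when RBPJ is missing. Of the 7 factors 4 rose without RBPJ and none fell: Gata2, Lmo2, Tal1 and Hlf. Of 18174 tested genes 5.42% passed in this comparison, 2.49% higher and 2.93% lower (edgeR quasi-likelihood test, Benjamini-Hochberg adjusted p below 0.05). When RBPJ returned for 6 days, none of the 7 passed the test in either direction against the uninduced libraries, where 1.96% of all genes passed, 1.55% higher and 0.413% lower. Before adjustment 2 of the 7, Lmo2 and Tal1, were under 0.05 there by edgeR, and DESeq2 called 1, Tal1. Against Control, 2 of the 7, Gata2 and Lmo2, were still higher after induction, with 0.187% of all genes higher and 0 of 18174 lower by edgeR. There 940 genes were under 0.05 before adjustment in either direction, and DESeq2 called 49 lower. In that last comparison edgeR gave 34 higher genes in all, of which 25 had also been higher in the uninduced libraries. These 3 comparisons share libraries, so their values are set side by side and are not independent of each other. When a library was left out, its group kept 1 library, which was assumed to vary like the others. Adjusted p-values of such fits hold no spread within that group.

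**Figure D1:**
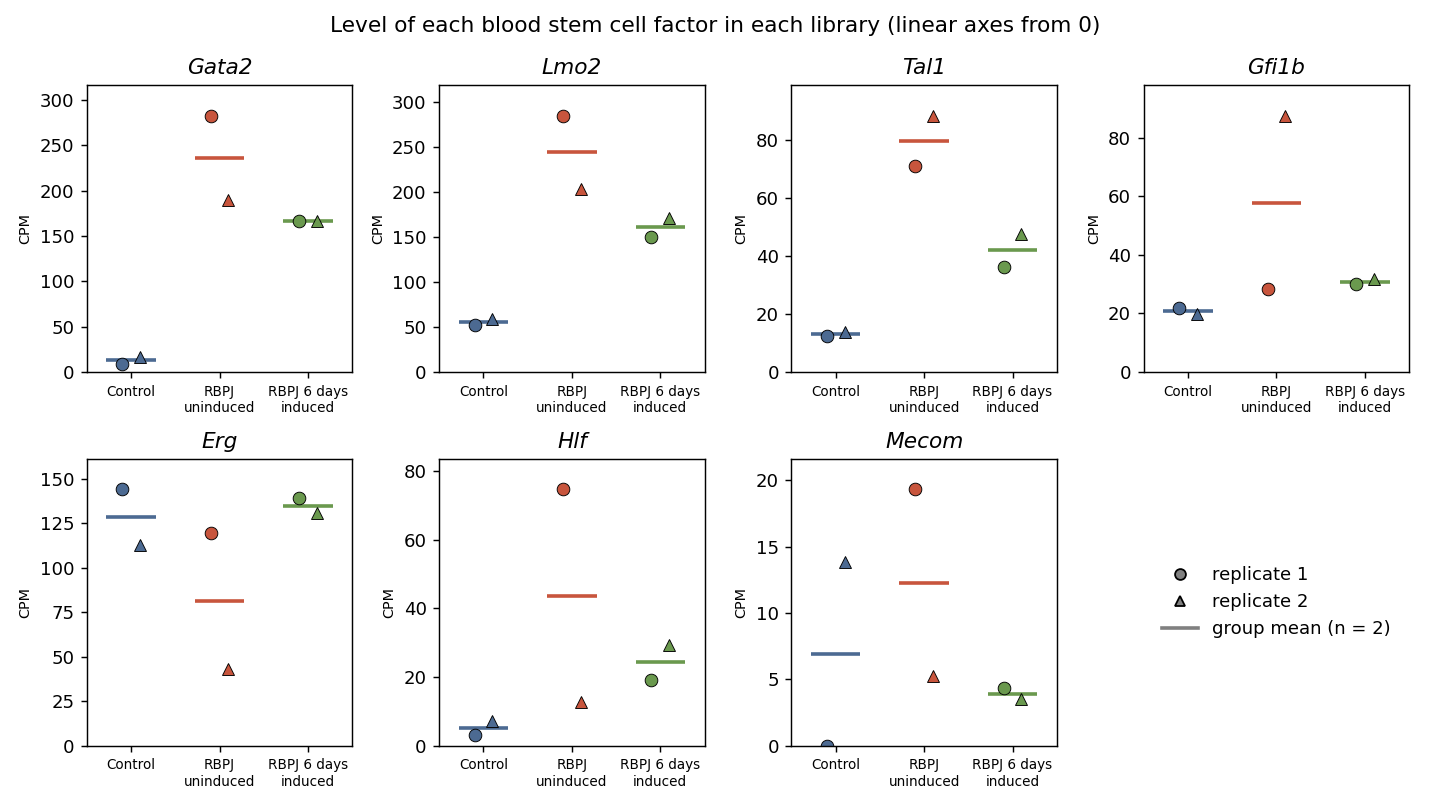
Level of each of the 7 factors in CPM (vertical axes, linear from 0) in the 2 libraries of each group (horizontal axis), with a bar at the group mean. Gata2, Lmo2, Tal1, Hlf and Gfi1b are higher in both uninduced and both induced libraries than in either Control library. The uninduced libraries lie far apart for Gfi1b, Erg, Hlf and Mecom.

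Gata2, the GATA factor of stem cells and mast cells, was scarce in Control at 9.21 and 16.98 CPM. Uninduced libraries held 283 and 189.6 CPM, and induced ones 166.7 and 166.5 CPM. The Control libraries were far below the other 4, and both induced libraries were below both uninduced ones. Its log2 fold change without RBPJ was 4.21 (SE 0.33, adjusted p = 0.000387), a rise of 18.5-fold. The difference of induced from uninduced libraries was -0.50 (95% interval -1.14 to 0.13, adjusted p = 0.454). Induced libraries stayed above Control by 3.71 (SE 0.323, adjusted p = 0.00309), a 13.0-fold difference with the fourth smallest p of all tested genes. Measured on the log2 scale, 88.1% of the gap between uninduced and Control libraries was left after 6 days. Such a share has no interval here, and in plain CPM it was smaller for Gata2, Lmo2 and Tal1 alike.

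Lmo2, the bridging LIM-only protein, was already well expressed in Control, at 52.5 and 58.6 CPM. The uninduced libraries held 285 and 203 CPM and the induced libraries 149.9 and 172 CPM. The 3 groups did not overlap, with the induced libraries in the middle. The rise without RBPJ was 2.14 (SE 0.219, adjusted p = 0.00133), 4.40-fold. Induced libraries differed from uninduced by -0.60 (95% interval -1.07 to -0.13, adjusted p = 0.199) and from Control by 1.54 (SE 0.215, adjusted p = 0.0288), which left 71.9% of the log2 gap. Without uninduced replicate 2 the first of these passed (-0.81, adjusted p = 0.0312). The second lost its call without Control replicate 1 (adjusted p = 0.0958) or the other Control library (adjusted p = 0.112), with DESeq2 size factors (adjusted p = 0.0528) or with a stricter filter (adjusted p = 0.0712).

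Tal1, the bHLH partner in the complex, stood at 12.5 and 13.6 CPM in Control, 70.9 and 88.3 CPM in uninduced and 36.3 and 47.5 CPM in induced libraries. Here too the induced libraries lay between the other groups without overlap. The gene rose by 2.61 without RBPJ (SE 0.268, adjusted p = 0.00133), 6.11-fold. The step from uninduced to induced was -0.93 (95% interval -1.49 to -0.37, adjusted p = 0.107), and induced libraries differed from Control by 1.69 (SE 0.261, adjusted p = 0.0509), just short of the threshold, with 64.5% of the log2 gap left. That last difference passed without either uninduced library (adjusted p = 0.00074 without replicate 1 and 0.00116 without replicate 2), without induced replicate 1 (adjusted p = 0.0182), by DESeq2 (adjusted p = 2.15e-05), without the low-count filter (adjusted p = 2.64e-05) and in a fit of the 4 compared libraries (adjusted p = 0.0208). The step down on induction passed by DESeq2 (adjusted p = 0.0205) and without uninduced replicate 1 (adjusted p = 0.0343).

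Hlf, the stem cell bZIP factor, was low in Control at 3.20 and 7.08 CPM. It reached 74.6 and 12.7 CPM in the uninduced libraries, nearly 6 times apart, and 19.2 and 29.4 CPM in the induced ones. All 4 libraries from mice that had lacked RBPJ were above both Control libraries, while uninduced and induced libraries overlapped. The rise without RBPJ was 3.13 (SE 0.762, adjusted p = 0.0477). The call was lost when Control replicate 1 (adjusted p = 0.168), its fellow replicate 2 (adjusted p = 0.105) or uninduced replicate 1 (1.32, adjusted p = 0.0914) was left out, and with DESeq2 size factors (adjusted p = 0.0566), a stricter filter (adjusted p = 0.0625) or the 4 compared libraries alone (adjusted p = 0.159). Induced libraries differed from uninduced by -0.84 (95% interval -2.37 to 0.70, adjusted p = 0.625), and by 0.99 without uninduced replicate 1 and -1.60 without uninduced replicate 2. Against Control they stood at 2.29 (SE 0.744, adjusted p = 0.58), which passed without uninduced replicate 1 (adjusted p = 0.00348) or replicate 2 (adjusted p = 0.00179) and without the low-count filter (adjusted p = 1.92e-06).

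Gfi1b, the repressor, had 21.7 and 19.6 CPM in Control, 28.2 and 87.5 CPM in uninduced and 30.03 and 31.7 CPM in induced libraries. Uninduced replicate 2 stood apart, and the 5 other libraries lay between 19.6 and 31.7 CPM. All uninduced and induced libraries were above both Control libraries. The difference without RBPJ was 1.49 (SE 0.45, adjusted p = 0.0986), which passed by DESeq2 (adjusted p = 0.034) and without the low-count filter (adjusted p = 0.000533). It was 2.02 without uninduced replicate 1 and 0.43 without uninduced replicate 2, each resting on 1 uninduced library. Induced libraries differed from uninduced by -0.91 (95% interval -1.90 to 0.08, adjusted p = 0.368), by 0.15 without uninduced replicate 2 and by -1.45 without replicate 1. From Control they differed by 0.575, with 38.7% of the log2 gap left. That difference did not pass in the main fit or in any of 12 alternatives. Uninduced replicate 2 also held the most RNA of 12 erythroid genes, 1603 CPM against 502 CPM in its fellow, and of the B-lineage genes. Their part in the level of Gfi1b was not tested.

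Erg, the ETS factor, showed no call in any comparison. Its levels were 144 and 113 CPM in Control, 119 and 43.2 CPM in uninduced and 139 and 131 CPM in induced libraries. Apart from uninduced replicate 2, the libraries lay between 113 and 144 CPM. The difference without RBPJ was -0.67 (95% interval -1.53 to 0.20, adjusted p = 0.409), and induced libraries differed from Control by 0.07 (95% interval -0.79 to 0.92, adjusted p = 1). Without uninduced replicate 1, Erg was lower in the single uninduced library that remained (-1.63) and higher on induction (1.70).

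Mecom, the EVI1 locus, was scarce and differed widely between Control libraries. Control replicate 1 held 0 counts and replicate 2 held 78, or 13.8 CPM. The uninduced libraries stood at 19.3 and 5.24 CPM and the induced ones at 4.33 and 3.54 CPM. The groups overlapped, apart from the induced libraries, which were below both uninduced ones. The differences were 0.87 without RBPJ (95% interval -2.32 to 4.06, adjusted p = 0.844), -1.63 on induction (95% interval -4.85 to 1.60, adjusted p = 0.66) and -0.76 of induced from Control (95% interval -3.98 to 2.46, adjusted p = 1). When Control replicate 2 was left out, the uninduced mean was at least 53.7-fold above a floor of 3 counts in the Control library that remained. The Control library left out, at 13.8 CPM, was itself above the uninduced mean of 12.3 CPM.

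**Figure D2:**
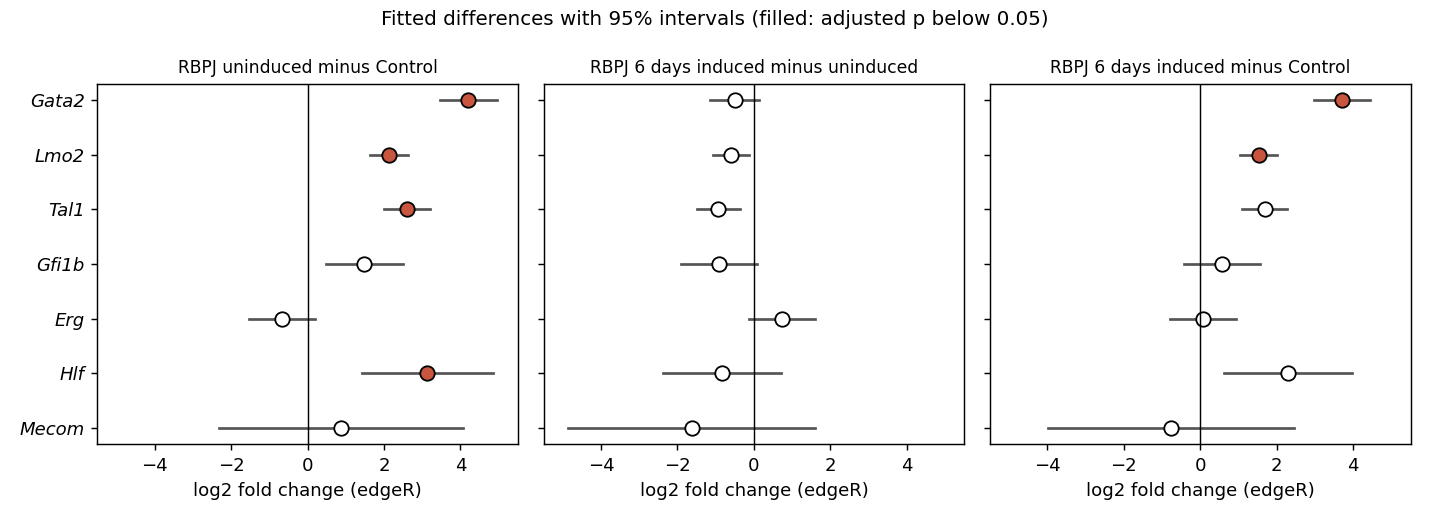
Fitted log2 fold change (horizontal axis) of each of the 7 factors in the 3 comparisons, with 95% intervals, filled where the adjusted p is below 0.05. Gata2 and Lmo2 are filled on the left and on the right and lie at -0.50 and -0.60 in the middle, where no gene is filled, and the intervals of Hlf and Mecom are the widest.

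Per kilobase of annotated exon, which allows levels of different genes to be compared, the order of the factors changed between groups. In Control, Erg led at 37.1 CPM per kilobase, followed by Lmo2 at 25.6, Gfi1b at 11.3, Tal1 at 2.98, Gata2 at 2.43, Hlf at 0.769 and Mecom at 0.555 CPM per kilobase. Tal1 and Gata2 did not differ there beyond their spread, nor did Hlf and Mecom. In uninduced libraries Lmo2 led at 113 CPM per kilobase, then came Gata2 at 43.8, Gfi1b at 31.6, Erg at 23.5, Tal1 at 18.2, Hlf at 6.53 and Mecom at 0.987 CPM per kilobase. From Gata2 to Tal1 each neighbour in that order overlapped the next. In induced libraries the order was Lmo2 at 74.3, Erg at 38.9, Gata2 at 30.9, Gfi1b at 16.9, Tal1 at 9.57, Hlf at 3.64 and Mecom at 0.317 CPM per kilobase, with no overlap between neighbours. Gata2 thus stood below Gfi1b in both Control libraries and above it in both induced ones.

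Across the 6 libraries, which mix the group differences with the spread inside groups, Gata2, Lmo2 and Tal1 followed each other closely. Pearson's r of log2(CPM + 1) was 0.979 between Gata2 and Lmo2, 0.965 between Lmo2 and Tal1 and 0.941 between Gata2 and Tal1. Hlf went with Lmo2 (0.894) and Gata2 (0.875). Erg ran opposite to Gfi1b (-0.898), largely through uninduced replicate 2, where Erg was lowest and Gfi1b highest. The 2 uninduced libraries also ordered the factors differently: Gata2, Lmo2, Erg, Hlf and Mecom were higher in replicate 1, and Tal1 and Gfi1b in replicate 2.

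Among 8988 other protein-coding genes whose average log2 CPM reached 3, those most like Gata2 over the 6 libraries were Adgrl2, an adhesion receptor (r = 0.997), Cited2, a coactivator-binding factor needed by blood stem cells (r = 0.996), and Galnt4, a glycosyltransferase (r = 0.994). Adgrl2 stood at 7.61 and 10.6 CPM in Control, 101 and 73.6 CPM in uninduced and 59.7 and 75.9 CPM in induced libraries, while Galnt4 moved only between 14.6 and 18.95 CPM. Most like Lmo2 were Rab9 (r = 0.997), the tetraspanin gene Cd63 (r = 0.996) and Chpt1 (r = 0.995). Cd63, a granule membrane protein, stood at 0.914 and 1.59 CPM in Control, 55.5 and 22.96 CPM in uninduced and 12.2 and 14.2 CPM in induced libraries. The genes most like Tal1 were the helicase gene Pif1 (r = 0.997), the transferrin receptor 2 gene Tfr2 (r = 0.995) and Dpy19l4 (r = 0.995). Tfr2 stood at 5.56 and 8.14 CPM in Control, 55.1 and 67.7 CPM in uninduced and 27.8 and 35.3 CPM in induced libraries. The other named genes moved less. Cited2 lay between 45.8 and 76.5 CPM, Rab9 between 11.9 and 21.9 CPM and Chpt1 between 5.03 and 11.1 CPM. Pif1 lay between 4.49 and 11.8 CPM and Dpy19l4 between 22.6 and 37.7 CPM. A high r thus did not mean a change of like size. With a pseudocount of 5 in place of 1, 2 of the 3 genes named for Gata2 (not Galnt4), 2 of 3 for Lmo2 (not Cd63) and 3 of 3 for Tal1 were still the most alike. With 6 libraries and 8988 genes, correlations of this height are a description of shared group levels.

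Of 20 complex partners and cofactors, all tested, 1 rose without RBPJ and none fell, beside 2.49% and 2.93% of all tested genes. None passed on induction or between induced and Control libraries, beside 1.96% and 0.187% of all tested genes. Their median log2 fold changes were -0.07, 0.15 and 0.03 in the 3 comparisons, beside -0.02, -0.03 and -0.02 over all genes and 2.14, -0.84 and 1.54 over the 7 factors. The gene that rose was Zfpm1, which encodes FOG1, the cofactor of GATA1 and GATA2. It stood at 35.7 and 44.4 CPM in Control, 118 and 294 CPM in uninduced and 129 and 153 CPM in induced libraries. Its rise was 2.37 (SE 0.377, adjusted p = 0.00856), not past the threshold with the 4 compared libraries alone (adjusted p = 0.0661), and its difference of induced from Control was 1.82 (adjusted p = 0.138). The LIM-binding scaffold gene Ldb1 stayed between 149 and 240 CPM in all 6 libraries, Runx1 between 187 and 409 CPM, Fli1 between 78.6 and 129 CPM and the TAL1 relative Lyl1 between 32.9 and 60.6 CPM, and none of them passed in any comparison.

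Among 12 near relatives of the factors, of which Lyl1 and Fli1 also count as partners above, 1 fell and none rose without RBPJ, and 1 rose on induction. The shares of all tested genes were 2.93%, 2.49% and 1.55% in the same order. Both calls among the relatives were of Gata3, the GATA factor of T-cell commitment. It stood at 45.1 and 32.6 CPM in Control, 2.26 and 6.58 CPM in uninduced and 36.7 and 37.3 CPM in induced libraries. Gata3 fell by 3.09 on the log2 scale without RBPJ (SE 0.457, adjusted p = 0.00617) and rose by 3.02 on induction (SE 0.455, adjusted p = 0.0145). With the 4 compared libraries alone these adjusted p-values were 0.0571 and 0.0761. After 6 days Gata3 overlapped Control while Gata2 did not. Gata1, the erythroid and mast cell GATA factor, stood at 0.152 and 6.37 CPM in Control, 26.1 and 80.1 CPM in uninduced and 19.3 and 16.1 CPM in induced libraries. Its difference without RBPJ was 4.23 (SE 1.07, adjusted p = 0.0539). It passed in 8 of 12 alternatives, among them leaving out any 1 library, and ranged from 3.10 without Control replicate 1 (adjusted p = 0.04) to 8.23 without Control replicate 2 (adjusted p = 0.00396), where the Control library that remains has 2 counts. Gfi1, the relative of Gfi1b, stayed between 18.8 and 28.98 CPM and passed in no comparison. The list's medians were -0.31, 0.27 and -0.08, the first with Tal2 at 0 counts in both uninduced libraries.

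Of 24 other blood stem cell genes, 22 could be tested. Without RBPJ 1 rose and none fell, beside 2.49% and 2.93% of all tested genes. On induction 1 rose, beside 1.55%, and none passed between induced and Control libraries, beside 0.187%. The list's medians were 0.10, 0.36 and 0.22. The gene that rose on induction was Ly6a, which encodes the stem cell antigen SCA-1, an interferon-inducible protein. It stood at 14.6 and 6.90 CPM in Control, 5.39 and 2.01 CPM in uninduced and 28.4 and 31.3 CPM in induced libraries (3.04, SE 0.557, adjusted p = 0.0305, and 0.0837 with the 4 compared libraries). Leaving out uninduced replicate 2 gave 5 higher and 1 lower of these genes without RBPJ, and leaving out uninduced replicate 1 gave 1 higher and 6 lower.

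**Figure D3:**
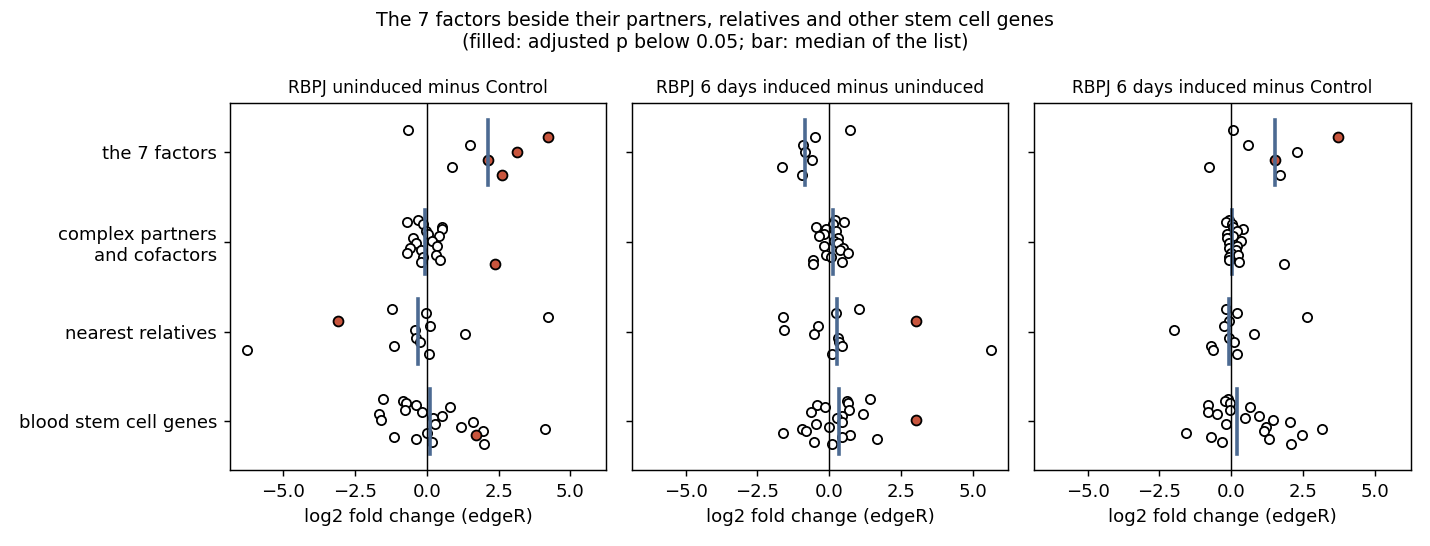
Fitted log2 fold changes (horizontal axis) of the 7 factors and of 3 lists of related genes (rows) in the 3 comparisons, filled where the adjusted p is below 0.05, with a bar at each list's median. The partners cluster around 0 apart from Zfpm1, the filled relative is Gata3, and the point beyond -6 is Tal2, whose fitted value rests on groups with almost no counts.

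Several of the factors also serve differentiated cells, and markers of those cells moved with the groups. The counts called in each marker list stand beside these shares of all tested genes. Without RBPJ 2.49% were higher and 2.93% lower, and on induction 1.55% were higher and 0.413% lower. Between induced and Control libraries 0.187% were higher and 0 lower. Summed over 11 mast cell and basophil genes, levels were 61.0 to 79.0 CPM in Control, 507 to 793 CPM in uninduced and 186 to 242 CPM in induced libraries, with Fcer1a at 0 in both Control libraries and Prss34 in the other groups. The 2 induced libraries differed within this list. The most abundant gene, Cpa3, stood at 115 and 136 CPM there, but Cma1 at 24.8 and 1.58 CPM and Mcpt4 at 35.1 and 2.05 CPM. In Control, Cma1 stood at 1.68 and 0.177 CPM and Mcpt4 at 1.68 and 0.354 CPM. Cpa3 held 62.6 and 41.0 CPM in Control and 314.5 and 147.8 CPM in uninduced libraries. Of the 9 tested 6 rose without RBPJ, 1 fell on induction and 1 was still higher than Control. Hdc, the histamine-forming enzyme, stood at 9.21 and 9.55 CPM in Control, 64.9 and 72.2 CPM in uninduced and 16.96 and 21.7 CPM in induced libraries, and fell by 1.83 on induction (SE 0.270, adjusted p = 0.0134, and 0.116 without induced replicate 1). Ms4a2, the beta chain of the IgE receptor, remained higher than Control at 10.4 and 16.0 CPM against 0.0761 and 0.354 CPM (adjusted p = 0.0175, and 0.0712 without Control replicate 1).

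Summed over 12 erythroid genes, levels were 71.2 to 77.1 CPM in Control, 502 to 1603 CPM in uninduced and 286 to 388 CPM in induced libraries, with Rhd among the genes at 0 in both Control libraries. Of these 7 rose without RBPJ, none passed on induction and 1 stayed above Control. The 12 megakaryocyte and platelet genes summed to 129.7 to 139.6 CPM in Control, 176 to 281 CPM in uninduced and 239 to 249 CPM in induced libraries, and of the 9 tested 3 rose without RBPJ and none passed in the other comparisons. Itga2b, the platelet integrin chain that early progenitors also carry, stood at 16.1 and 21.1 CPM in Control, 108 and 63.3 CPM in uninduced and 61.4 and 79.6 CPM in induced libraries. The 13 myeloid genes summed to 513 to 590.1 CPM, 3408 to 4464 CPM and 787 to 1698 CPM in the same order, with 7 of 11 tested higher without RBPJ and 1, Mpo, lower on induction (-1.75, adjusted p = 0.0307), a call lost without induced replicate 1 (-1.28, adjusted p = 0.12) and with the 4 compared libraries (adjusted p = 0.112). From uninduced to induced libraries the medians were -1.99 for the 9 mast cell, -2.07 for the 12 erythroid, -1.003 for the 11 myeloid and -0.28 for the 9 megakaryocyte genes tested, beside -0.50 for Gata2, -0.60 for Lmo2 and -0.93 for Tal1. Between induced and Control libraries the medians of these lists, in the same order, were 1.37, 2.59, 1.85 and 1.93. The erythroid median was 2.285 with groups at 0 set to a floor of 3 counts. All tested mast cell, myeloid and megakaryocyte genes and 8 of the 12 erythroid genes were above 0 there. The factors stood at 3.71 for Gata2, 1.54 for Lmo2 and 1.69 for Tal1. The part of such cells in the levels of the factors was not tested.

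Endothelial cells also express several of these factors. Of their genes, the cadherin gene Cdh5 stood between 0 and 2.12 CPM and the junction gene Cldn5 had counts in 1 library only, with 0.446 CPM. The most abundant were Egfl7, at 15.9 to 22.5 CPM in Control, 4.52 to 6.69 CPM in uninduced and 6.62 to 10.7 CPM in induced libraries, and Plvap, at 5.22 to 19.8 CPM over all libraries. Tie1, a receptor of endothelial and early blood cells, stood at 0.609 and 4.78 CPM in Control, 24.7 and 7.36 CPM in uninduced and 4.42 and 8.94 CPM in induced libraries (2.66 without RBPJ, SE 0.94, adjusted p = 0.156). Robo4 fell without RBPJ, from 11.8 and 15.4 CPM to 3.13 and 1.003 CPM (-2.75, adjusted p = 0.0389, and 0.0988 and 0.153 without Control replicate 1 or 2). The 10 endothelial genes summed to 47.3 to 53.95 CPM in Control, 40.7 to 54.9 CPM in uninduced and 39.5 to 45.3 CPM in induced libraries, with 1 of the 7 tested lower without RBPJ and none called in the other comparisons. Without RBPJ the fitted differences of 5 of the 7 were above 0, none of them past the threshold, and the median was 0.56. The 6 thymic stromal genes summed to 209 to 248 CPM in Control, 31.9 to 53.0 CPM in uninduced and 213 to 234 CPM in induced libraries. Nearly all of this sum was Pdgfrb, the gene of this list that fell without RBPJ and rose on induction, so the sum does not describe the list. Over the 5 tested genes the median log2 fold change was -1.55 without RBPJ and -0.43 on induction, where 2 were above 0. Between induced and Control libraries it was -1.42. Of 9 tested B-lineage genes 1, Cd79a, rose without RBPJ, a call lost without uninduced replicate 2 (2.57, adjusted p = 0.276) and without either Control library (adjusted p = 0.143 without replicate 1 and 0.0698 without replicate 2). Of 11 tested genes of later thymocytes and mature T cells, 3 fell without RBPJ and 2 rose on induction.

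**Figure D4:**
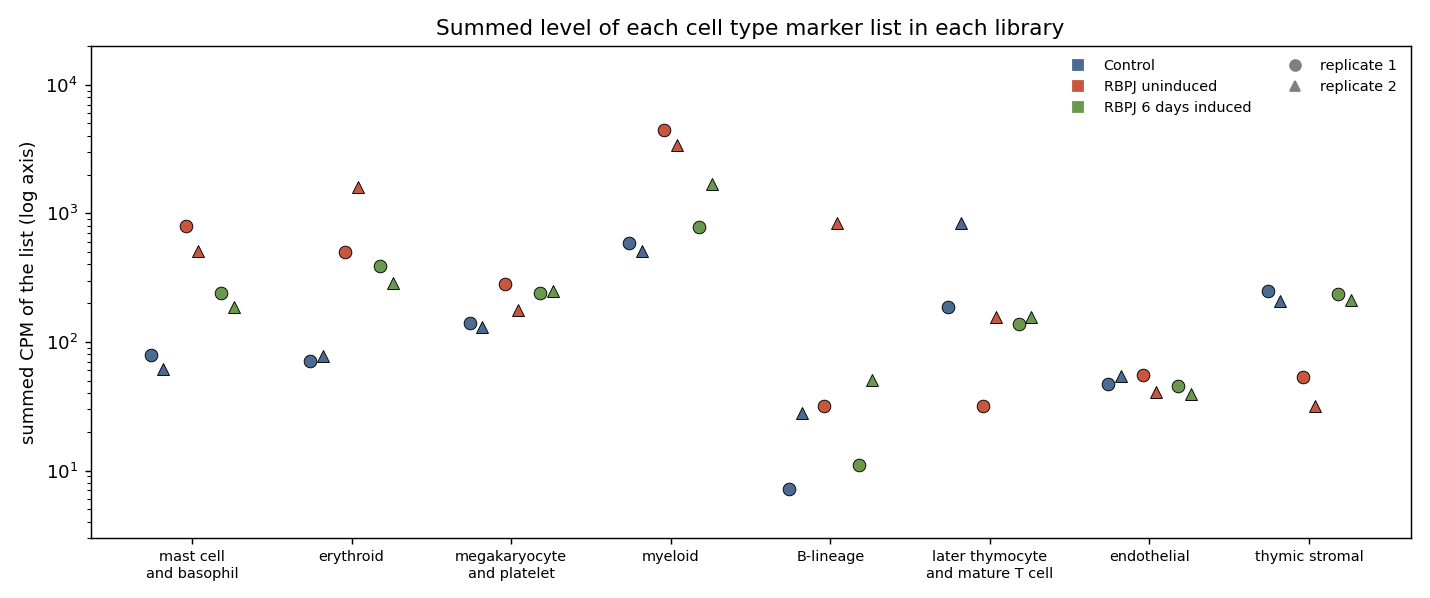
Summed level of each cell type marker list in CPM (vertical log axis) in each library, coloured by group with a symbol for each replicate. Mast cell, erythroid and myeloid sums are highest in the uninduced libraries and intermediate in the induced ones, the B-lineage sum stands out in RBPJ uninduced replicate 2 and the T-cell sum in Control replicate 2. The thymic stromal sum is nearly all Pdgfrb.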

How the data were processed

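RNA of sorted DN1a/b thymus cells was measured in 6 libraries, grouped and numbered by their titles. Each deposited file lists Ensembl gene IDs with raw read counts, without normalization. Per the submitters' processing notes, HISAT2, StringTie, HTSeq and the build mm10 were used, without versions or roles. No label or header names the annotation release or strand setting, and a gene and an antisense partner may share reads. Of the 47729 gene IDs 47224 matched GENCODE M21 (GRCm38, the same build), which gave symbols, positions and exon lengths.

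In R 4.3.3 with edgeR 4.0.16, filterByExpr (minimum count 10, minimum total 15) left 18174 genes, and libraries were scaled by TMM (factors 0.824 to 1.13). A single quasi-likelihood fit took all 6 libraries and the 3 group means, leaving 3 residual degrees of freedom, and p-values were Benjamini-Hochberg adjusted over all tested genes with a threshold of 0.05. CPM use the scaled totals. SEs were obtained as the absolute log2 difference over the root of the F statistic. Replicates differed by more than sampling noise (chi-square per degree of freedom 20.6 in Control, 54.1 in uninduced and 16.4 in induced libraries), so none was counted as a duplicate, and the fit's single spread may be too small for uninduced and too large for the other libraries. The fit was tested on counts simulated for 18174 genes. For uninduced against Control it found 7.46% of the genes changed 2-fold, 55.2% of those changed 4-fold and 75.8% of those changed 8-fold, and 12 of its 104 calls were false. The same shares were 16.4%, 55.2% and 72.7% for induced against uninduced (15 false calls of 111), and 7.46%, 50.7% and 63.6% for induced against Control (7 of 88). Most 2-fold changes were therefore missed in this simulation, whose changed genes included sparse ones, and recovery at the level of each factor was not simulated. In each comparison the share of false calls was above the threshold of 0.05, so calls near that threshold are uncertain.

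The 7 factors and the lists were chosen with earlier results of these data known. Named besides the 7 and Rbpj were up to 4 called members of the partner, relative and stem cell lists per comparison, a few fixed partners, abundant or called markers, and the 3 genes most like Gata2, Lmo2 and Tal1. Cdh5, Cldn5, Fcer1a, Prss34, Rhd and Tal2 were picked with their values in view. The alternatives were DESeq2 1.42.0, its size factors in edgeR, no filter or a minimum count of 30, fits of the 4 compared libraries, a replicate block, and omission of each library in turn. Promoter windows are from RefSeq (GRCm38.p6). Single values of some list genes are not reported here.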

Additional observations from a re-analysis of the deposited data

How the results depend on the processing

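Of 252 recomputed log2 fold changes of the 7 factors (12 alternatives each for 21 differences), 214 kept their direction and side of the threshold, 22 passed newly, 10 no longer passed and 6 changed sign. Gata2 passed in all 12 both without RBPJ (3.82 to 4.59) and between induced and Control libraries (3.34 to 4.14), and Lmo2 and Tal1 in all 12 without RBPJ. Sign changes were those of Mecom without RBPJ (-0.17 without Control replicate 1, -0.36 without uninduced replicate 1) and of induced from Control (8.31 without Control replicate 2, a fit against a library with no counts), of Gfi1b on induction (0.15 without uninduced replicate 2), of Hlf on induction (0.99 without uninduced replicate 1) and of Erg between induced and Control (-0.13 without Control replicate 2). Leaving out a library, where an arm with 1 library is assumed to vary like the others, gave 0 to 1 of the 7 lower without RBPJ, 0 to 1 higher and 0 to 2 lower on induction, and 1 to 4 higher than Control after it. On induction DESeq2 gave 1 lower. After it, 1 was higher than Control with DESeq2 size factors, 1 with a minimum count of 30 and 4 without a filter (main value 2).

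Counts over all genes moved more. Without RBPJ, 452 higher and 533 lower became 814 and 1045 by DESeq2, 725 and 815 without a filter, 93 and 126 with the 4 compared libraries, and 185 to 1007 and 260 to 1165 leaving out a library. On induction, 282 and 75 became 746 and 492 by DESeq2, 675 and 314 without a filter, 70 and 1 with 4 libraries, and 156 to 951 and 15 to 549 leaving out a library, and the lower count was 130 with a minimum count of 30. Between induced and Control, 34 and 0 became 179 and 49 by DESeq2, 247 and 57 without a filter, 142 and 35 with 4 libraries, and 20 to 266 and 0 to 71 leaving out a library. Leaving out 1 library gave -0.36 to 9.90 for Mecom without RBPJ and -1.76 to 8.31 for Mecom, -0.13 to 0.31 for Erg between induced and Control, and -1.45 to 0.15 for Gfi1b and -1.60 to 0.99 for Hlf on induction. The cause was not tested. Without a filter the median of all genes shifted to -0.37 without RBPJ.

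Over all tested genes the replicate numbers showed no shared deviations: deviations from the group means correlated at -0.025, 0.014 and 0.016. Such a correlation over all genes cannot exclude pairing that touches a part of them. With the replicate block, 133 genes were lower on induction, and 101 were higher and 7 lower between induced and Control, where Tal1 passed (adjusted p = 0.0156).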

Other observations

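Meis1 and Lmo4, picked with their values in view, stood higher in the induced than in the Control libraries without passing the test. Meis1, a homeodomain factor of blood stem cells, stood at 38.8 and 27.95 CPM in Control, 156 and 50.6 CPM in uninduced and 144.6 and 136 CPM in induced libraries. Its log2 difference of induced from Control was 2.06 (SE 0.44, adjusted p = 0.158 by edgeR). Both induced libraries were above both Control libraries for each gene. Lmo4, a relative of Lmo2, stood at 11.1 and 17.7 CPM in Control, 41.2 and 31.4 CPM in uninduced and 22.5 and 27.5 CPM in induced libraries, the same order of groups as Lmo2, with adjusted p = 0.0534 without RBPJ and 0.884 between induced and Control.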
